A study of Mus musculus with 14 samples.

Results

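The spread of histone H3K27me3 was compared between K27M and H3WT mouse neural stem cells cultured in DMSO. The comparison used 4 of the 14 samples of the series: the H3K27me3 ChIP-seq libraries of K27M cells in DMSO, replicates 1 and 2, and those of H3WT cells in DMSO, replicates 1 and 2. The libraries were picked by their labels of genotype, antibody and treatment. The comparison itself was chosen with earlier results of these data known. Both groups were cells labelled PDGF Neural Stem Cells, described by the submitters as mouse DIPG cells that carry histone H3.3 either with the K27M substitution or in its wild-type form. DIPG is diffuse intrinsic pontine glioma, a childhood tumour of the brainstem. Both groups were grown with epidermal and basic fibroblast growth factors and received DMSO, the solvent control for an Ezh2 inhibitor, for 12 days. How PDGF and the histone were introduced, and whether each genotype was 1 line or several, is not given in the sources used here. Nothing in the labels says that the replicates were separate cultures, so any spread between them may be technical.

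H3K27me3 is trimethylation of lysine 27 of histone H3, the mark of repressed developmental genes. It is written by Polycomb repressive complex PRC2, whose catalytic subunit is Ezh2 and whose core includes Suz12, and it is read by PRC1, of which Ring1b is the catalytic subunit. In neural progenitors the mark covers Hox clusters and genes of other lineages. The K27M substitution puts a methionine in place of that lysine and is known to inhibit PRC2, and gliomas that carry it are known for a general loss of the mark.

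The deposited files are peak lists, and a called peak had only a position and a width. All results are therefore lengths of genome under peaks, and the height of the signal was not analysed here. A shorter covered length cannot tell apart fewer cells with the mark from less of the mark per cell. For each protein-coding gene, the locus cover was the length under peaks within the gene and 10 kb on either side. A gene lost the mark where it had cover in H3WT and none in K27M. It was narrowed where the K27M cover was at most 2/3 of the H3WT cover, widened where it was at least 3/2, and kept in between. It was new where only K27M had cover. The classes were set for replicate 1 against replicate 1 and for replicate 2 against replicate 2.

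A set of 6 promoters shows the kinds of change described here. Each line gives the 250 bases upstream of a transcript start from RefSeq (GRCm38.p6, the assembly also called mm10), with CG dinucleotides in capitals. The Hoxa2 promoter (chr6:52164832-52165081, minus strand) and the Pdgfra promoter (chr5:75152001-75152250, plus strand) lay under peaks of both K27M libraries and, of the H3WT libraries, of replicate 2 only. The Cdkn2a promoter shown (chr4:89294620-89294869, minus strand), just upstream of the gene start, was reached by peaks of both K27M libraries and of neither H3WT library. The H3WT libraries still had 23.1 and 29.7 kb of cover in that locus. The Hoxd3 promoter (chr2:74711743-74711992, plus strand) and the Stxbp5l promoter (chr16:37384959-37385208, minus strand) lay under peaks of all 4 libraries. The Krt7 promoter (chr15:101412153-101412402, plus strand) lay under peaks of both H3WT libraries and of neither K27M library. The sequences hold from 4 CG dinucleotides in Pdgfra to 40 in Cdkn2a.
Hoxa2: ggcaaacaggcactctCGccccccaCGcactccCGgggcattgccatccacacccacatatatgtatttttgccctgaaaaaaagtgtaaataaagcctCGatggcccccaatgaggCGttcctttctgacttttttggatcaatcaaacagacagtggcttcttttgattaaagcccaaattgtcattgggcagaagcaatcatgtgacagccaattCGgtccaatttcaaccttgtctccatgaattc
Pdgfra: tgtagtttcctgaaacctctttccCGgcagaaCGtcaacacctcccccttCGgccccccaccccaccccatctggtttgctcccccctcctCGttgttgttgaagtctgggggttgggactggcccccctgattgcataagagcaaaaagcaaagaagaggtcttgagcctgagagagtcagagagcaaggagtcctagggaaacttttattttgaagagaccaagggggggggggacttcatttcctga
Cdkn2a: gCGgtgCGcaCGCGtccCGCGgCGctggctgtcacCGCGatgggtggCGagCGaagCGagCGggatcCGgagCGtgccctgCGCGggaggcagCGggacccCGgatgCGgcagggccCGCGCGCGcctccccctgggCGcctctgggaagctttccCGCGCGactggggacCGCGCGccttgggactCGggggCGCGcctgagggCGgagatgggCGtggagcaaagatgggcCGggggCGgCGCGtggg
Hoxd3: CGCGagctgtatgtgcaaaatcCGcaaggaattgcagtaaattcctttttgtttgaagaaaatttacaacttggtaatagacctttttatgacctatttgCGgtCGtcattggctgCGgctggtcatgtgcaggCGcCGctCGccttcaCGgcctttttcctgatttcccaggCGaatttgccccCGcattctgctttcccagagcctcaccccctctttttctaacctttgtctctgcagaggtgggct
Stxbp5l: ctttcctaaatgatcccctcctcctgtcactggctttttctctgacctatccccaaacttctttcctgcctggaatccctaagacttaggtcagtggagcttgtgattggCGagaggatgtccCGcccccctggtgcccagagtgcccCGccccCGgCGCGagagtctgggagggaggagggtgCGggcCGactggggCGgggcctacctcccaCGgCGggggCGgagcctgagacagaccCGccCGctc
Krt7: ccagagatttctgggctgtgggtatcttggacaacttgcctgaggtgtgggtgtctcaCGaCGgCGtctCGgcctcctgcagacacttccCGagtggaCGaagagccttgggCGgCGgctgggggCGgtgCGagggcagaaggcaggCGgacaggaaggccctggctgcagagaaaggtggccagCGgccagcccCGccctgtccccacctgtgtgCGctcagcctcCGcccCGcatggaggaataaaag

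The total autosomal length under H3K27me3 peaks was shorter in K27M than in H3WT cells of the same replicate number, and the peaks that were present were wider. K27M replicates 1 and 2 had 12.98 and 41.6 Mb under peaks, against 39.2 and 149.9 Mb in H3WT replicates 1 and 2. The ranges overlapped, because K27M replicate 2 had slightly more covered length than H3WT replicate 1. K27M cover was 0.331 times that of H3WT in replicate 1 and 0.278 times in replicate 2. The libraries of 1 genotype differed by as much: H3WT replicate 1 had 0.262 times the length of H3WT replicate 2, and K27M replicate 1 had 0.312 times that of K27M replicate 2. The means were 27.3 ± 20.3 Mb in K27M and 94.6 ± 78.3 Mb in H3WT (SD, n = 2 each), and the difference of -1.72 on the log2 scale did not stand out from the spread (two-sided exact permutation p = 0.667). With 2 libraries a side this test cannot go below 0.333.

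K27M libraries held 2153 and 9368 autosomal peaks, against 11053 and 43446 in the H3WT libraries. Here the groups did not overlap, with a log2 difference of -2.29 (two-sided exact permutation p = 0.333, the smallest possible). The median width was 2.98 and 2.15 kb in K27M, against 1.90 and 1.93 kb in H3WT, again without overlap (log2 difference 0.40, two-sided exact permutation p = 0.333). Peaks of 20 kb or more made up 35.6 and 26.6% of all covered bases in K27M, against 17.7 and 14.7% in H3WT. Peaks under 2 kb held 8.35 and 14.6% of it in K27M, against 20.9 and 21.2% in H3WT. Both K27M libraries thus had more of their length in wide domains and less in narrow peaks, including K27M replicate 2, whose total length was 1.06 times that of H3WT replicate 1.

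**Figure D1:**
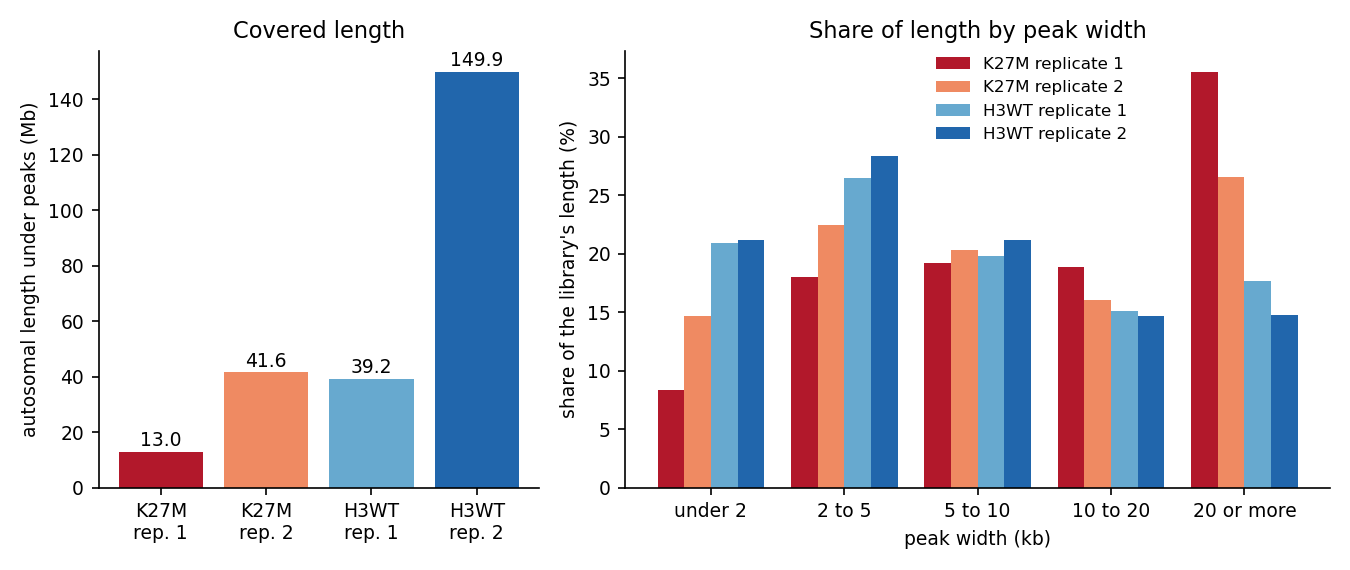
Autosomal length under H3K27me3 peaks in megabases (left, 1 bar a library) and the share of each library's length that lay in peaks of 5 width classes (right, in percent). Peaks of 20 kb or more made up 35.6 and 26.6% of the length in the 2 K27M libraries, against 17.7 and 14.7% in the 2 H3WT libraries.

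The remaining K27M cover lay almost wholly within H3WT cover. In replicate 1, 95.1% of K27M bases were also under an H3WT peak, and in replicate 2 it was 96.6%. In the other direction, K27M peaks covered 31.5% of the H3WT bases of replicate 1 and 26.8% of those of replicate 2. This nesting was as strong within a genotype, since 99.97% of the bases of K27M replicate 1 lay under K27M replicate 2 and 98.3% of those of H3WT replicate 1 under H3WT replicate 2. All 19 autosomes shared the reduction, from 17.2% of the H3WT length on chromosome 16 to 42.4% on chromosome 3 in replicate 1, and from 19.95% on chromosome 16 to 33.3% on chromosome 12 in replicate 2.

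Wide H3WT domains were the ones that still held K27M peaks. Of the H3WT peaks of 20 kb or more, 202 of 206 in replicate 1 and 596 of 614 in replicate 2 overlapped a K27M peak. Of those under 2 kb, 1.86% (95% exact binomial interval 1.54 to 2.24%) did in replicate 1 and 2.18% (1.99 to 2.38%) in replicate 2. Within peaks of 10 to 20 kb the K27M cover sat towards the middle: it took 62.7% of the inner and 42.4% of the outer part of each peak, parts of equal length, in replicate 1, and 55.3% and 36.2% in replicate 2. H3WT replicate 1 lay within H3WT replicate 2 in much the same way, overlapping 2.04% of the peaks under 2 kb and 99.4% of those of 20 kb or more. These intervals cover counting error only.

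Merging peaks with gaps of up to 3 kb gave domains, which followed the same order. In replicate 1, of 7202 domains with H3WT cover, 458 were kept, 883 narrowed, 25 widened and 5836 lost, and 18 others were new in K27M. In replicate 2, of 26244, 1388 were kept, 3670 narrowed, 68 widened and 21118 lost, with 118 new. Lost domains were short, with a median of 1.98 kb of H3WT cover in replicate 1 and 2.11 kb in replicate 2, whereas kept ones had medians of 12.7 and 9.56 kb. H3WT replicate 1 against H3WT replicate 2 gave 1082 kept, 4498 narrowed, 12 widened and 20672 lost of 26264, close to the replicate 2 contrast between the genotypes except among widened domains.

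At the level of genes, loss was the most frequent class and new cover the rarest. In replicate 1, of 4273 autosomal genes with H3WT cover, 2809 (65.7%) lost the mark, 856 (20.03%) were narrowed, 574 (13.4%) were kept and 34 (0.796%) were widened. Of the 16388 genes without H3WT cover, 9 (0.0549%) were new. In replicate 2, of 8856 genes, 4761 (53.8%) lost the mark, 2806 (31.7%) were narrowed, 1248 (14.1%) were kept and 41 (0.463%) were widened, with 41 (0.347%) new among 11805. Both replicate numbers gave the same class for 913 lost genes (21.4% of the 4258 with cover in both H3WT libraries), 533 narrowed (12.5%), 466 kept (10.9%) and 9 widened (0.211%), and for 2 new genes (0.017% of 11790).

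The same classes drawn between the H3WT libraries, replicate 1 over replicate 2, set the scale for these counts. There 4598 of 8856 genes counted as lost (51.9%), 3303 as narrowed (37.3%), 950 as kept (10.7%) and 5 as widened (0.0565%), with 15 new of 11805 (0.127%). Between genotypes in replicate 2 the shares of lost, narrowed and kept genes were thus close to those between the replicates of H3WT. In replicate 1 loss was more frequent, but it was nearly as frequent between the K27M libraries, replicate 1 over replicate 2. There 64.4% of 4136 genes counted as lost, 24.4% as narrowed and 11.2% as kept. Widened genes were the exception, at 34 and 41 between genotypes against 5 between the H3WT libraries and 0 of 4136 between the K27M libraries. No test was made of these counts.

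No single gene passed a test across all genes. With limma on log2(locus cover in kb + 1), 0 of 8911 autosomal genes were higher (0%) and 0 lower (0%) in K27M at an adjusted p under 0.05, and the lowest Benjamini-Hochberg adjusted p was 0.646. At an unadjusted p under 0.05 there were 521 genes, 3 with longer and 518 with shorter cover in K27M. Leaving out a library left 1 library in a group, so no calls from those fits are given. The single genes described next are thus values of 4 libraries and not significant changes. As a description chosen after the values were seen, 28 genes (0.314% of 8911) had longer cover in both K27M libraries than in either H3WT library, and 2318 (26.01%) had shorter cover in both. Without K27M replicate 1 the first count was 258 and without H3WT replicate 2 it was 166, and the second was 4053 without K27M replicate 2 and 8557 without H3WT replicate 1.

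The pair of libraries with nearly equal covered length, K27M replicate 2 and H3WT replicate 1, removed most of the one-sidedness. Of 5063 genes with cover in either, 2337 (46.2%) had shorter cover in K27M and 2666 (52.7%) had longer cover. In the pairs of equal number, 4068 of 4282 genes in replicate 1 and 8557 of 8897 in replicate 2 had shorter cover in K27M. In this pair 2103 genes were kept, 563 narrowed, 680 widened and 927 lost of the 4273 with cover in H3WT replicate 1, and 790 were new. K27M replicate 2 covered 71.3% of the bases of H3WT replicate 1. Genotype cannot be told apart from replicate number or other library differences in this pair, and the pair has no replicate.

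**Figure D2:**
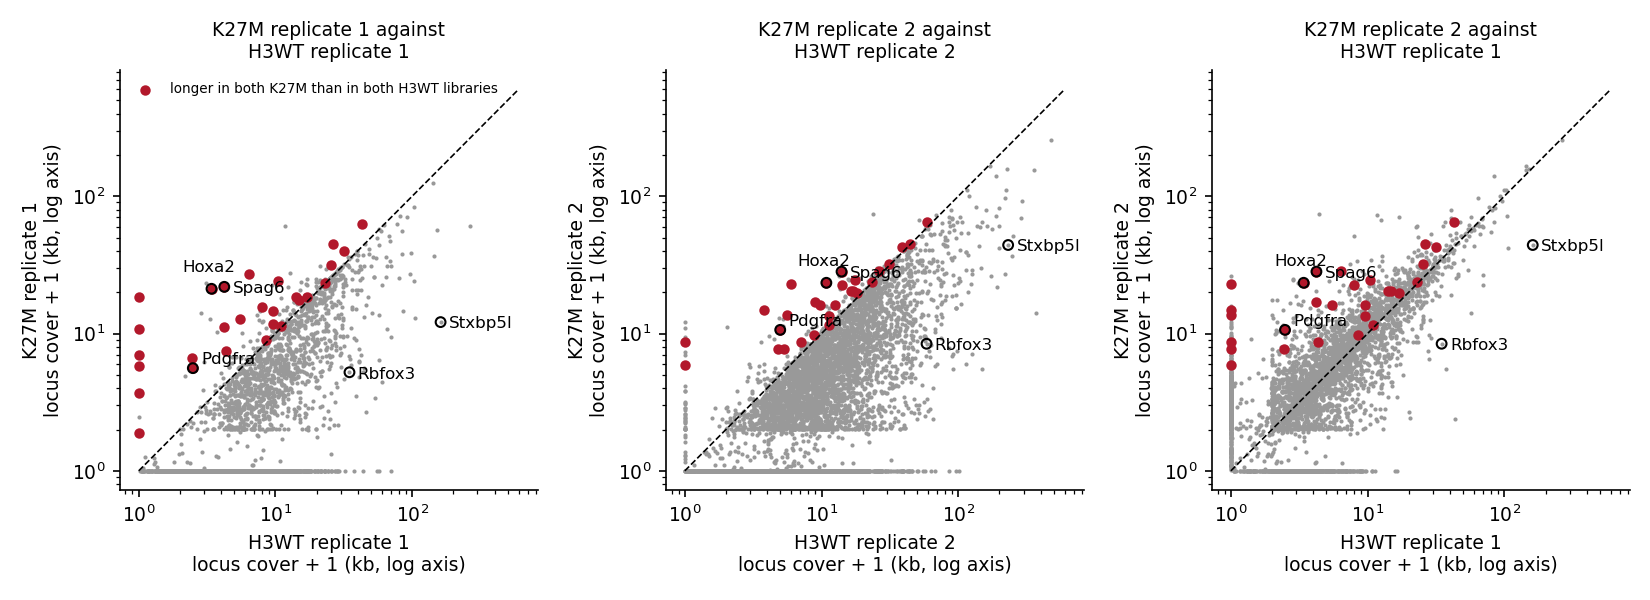
H3K27me3 locus cover of each autosomal gene in a K27M library (vertical) against an H3WT library (horizontal), both as kb + 1 on log axes, with 1 point a gene and the line of equality dashed. Most points lie under the line in the pairs of equal number and on both sides of it for K27M replicate 2 against H3WT replicate 1, with 28 genes in red that had longer cover in both K27M libraries than in both H3WT libraries.

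The mark reached further in K27M at the anterior end of the Hoxa cluster. Hoxa2 (chr6:52162417-52164831, minus strand) encodes a homeodomain factor of the hindbrain and the second pharyngeal arch. Its locus cover was 20.2 and 22.4 kb in K27M, against 2.41 and 9.85 kb in H3WT. Both K27M values were above both H3WT values, and the log2 difference was 1.87 (limma adjusted p = 0.646). Hoxa3, a further homeodomain factor of the cluster, had 62.2 and 64.0 kb in K27M, against 41.7 and 58.1 kb in H3WT. In both K27M libraries a single wide domain, 118 kb in replicate 1 and 186 kb in replicate 2, ran across the Hoxa2 promoter shown above. In H3WT replicate 1 the nearest peak began 7.59 kb upstream of the gene start.

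Ring1b, profiled in separate libraries with 1 of each genotype, had the same outline. Its peaks covered 21.1 kb of the Hoxa2 locus in K27M and 2.30 kb in H3WT. Over the 28 genes with longer H3K27me3 in both K27M libraries, all 24 with any Ring1b peak had longer Ring1b cover in K27M, with 418 kb in K27M and 186 kb in H3WT in sum over loci. Among all autosomal genes with a Ring1b peak, 1405 of 2050 (68.5%) had longer Ring1b cover in K27M. Among genes whose H3K27me3 was kept in both replicate numbers it was 354 of 373 (94.9%). Longer Ring1b cover was thus not particular to the 28 genes. The whole Ring1b list was longer in K27M, at 7.41 Mb in K27M and 5.12 Mb in H3WT. Neighbouring genes share peaks, so these genes are not independent, and no test was possible with 1 Ring1b library a genotype.

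A second stretch with wider cover lay on chromosome 2 around Bmi1, which encodes a PRC1 subunit. Bmi1 had 6.01 and 12.6 kb of H3K27me3 cover in K27M, against 0 and 4.55 kb in H3WT. Beside it Spag6, a gene of the ciliary and sperm axoneme (chr2:18694011-18749746, plus strand), had 20.9 and 27.2 kb in K27M, against 3.23 and 13.01 kb in H3WT (log2 difference 1.69, limma adjusted p = 0.646). Neither gene's groups overlapped. Ring1b covered 10.8 kb at Bmi1 and 16.2 kb at Spag6 in K27M, against 5.46 and 3.57 kb in H3WT.

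A further stretch, on chromosome 5, held Gsx2 and Pdgfra. Gsx2, a homeobox factor of the ventral forebrain, had 11.7 and 15.1 kb of cover in K27M, against 4.53 and 8.70 kb in H3WT. Pdgfra (chr5:75151322-75198206, plus strand), the PDGF receptor of glial progenitors, had 4.60 and 9.63 kb in K27M, against 1.49 and 3.99 kb in H3WT (log2 difference 1.13, limma adjusted p = 0.646). Both genes were higher in both K27M libraries. At Pdgfra each library had 1 peak, which began upstream of the gene in both K27M libraries and inside it in both H3WT libraries. Ring1b had a peak of 1.66 kb there in K27M and none in H3WT.

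The other genes widened in both replicate numbers were Nr6a1, Tbx4, Sox1, Camkmt and the predicted gene Gm46725, which lies between Bmi1 and Spag6. Nr6a1, an orphan nuclear receptor, had 14.6 and 21.5 kb in K27M, against 6.98 and 13.2 kb in H3WT. Tbx4, a T-box factor of the hindlimb, had 13.7 and 24.7 kb in K27M, against 6.69 and 16.04 kb in H3WT, and here the groups overlapped. So they did at Sox1, a factor of neural progenitors, with 13.1 and 24.0 kb in K27M, against 1.85 and 14.6 kb in H3WT. All 8 widened genes with a Ring1b peak had longer Ring1b cover in K27M, beside 354 of 373 (94.9%) kept genes. Their Ring1b cover was 78.7 kb in K27M and 18.8 kb in H3WT in sum. The 2 genes new in both numbers were Prdm1, a zinc-finger repressor of plasma and germ cells, with 2.66 and 7.74 kb in K27M and none in H3WT, and Meis1, a homeobox partner of Hox proteins, with 0.895 and 4.89 kb in K27M and none in H3WT. Neither had a Ring1b or Suz12 peak. The 0.895 kb at Meis1 was shorter than the narrowest peak in any list, 1001 bases. Its peak in K27M replicate 1 thus ran past the edge of the locus window.

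The 28 genes with longer cover in both K27M libraries included further developmental regulators. They also held Raet1e, E030030I06Rik, Aatf, Sec31b, Cir1 and Zgrf1, which were in none of the gene lists. Irx5, an Iroquois homeobox gene, had 23.0 and 23.7 kb in K27M, against 9.41 and 16.4 kb in H3WT. Zic1, a zinc-finger factor of the dorsal neural tube, had 26.0 and 27.7 kb in K27M, against 5.36 and 25.5 kb in H3WT. Nr5a2, an orphan nuclear receptor, had 9.78 and 13.7 kb in K27M, against 0 and 2.79 kb in H3WT. The groups did not overlap at any of these, but at Zic1 the distance between the lowest K27M and the highest H3WT library was small. Alx1, Hand1, Lhx1, Tbx2, Otx2, Sp9 and Zic4 were also in this group. At some of these the distance was smaller still: the lower K27M library had 22.3 kb at Lhx1, 17.4 kb at Hand1, 30.5 kb at Otx2 and 43.7 kb at Zic4, against 22.2, 17.3, 30.1 and 43.3 kb in the higher H3WT library.

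**Figure D3:**
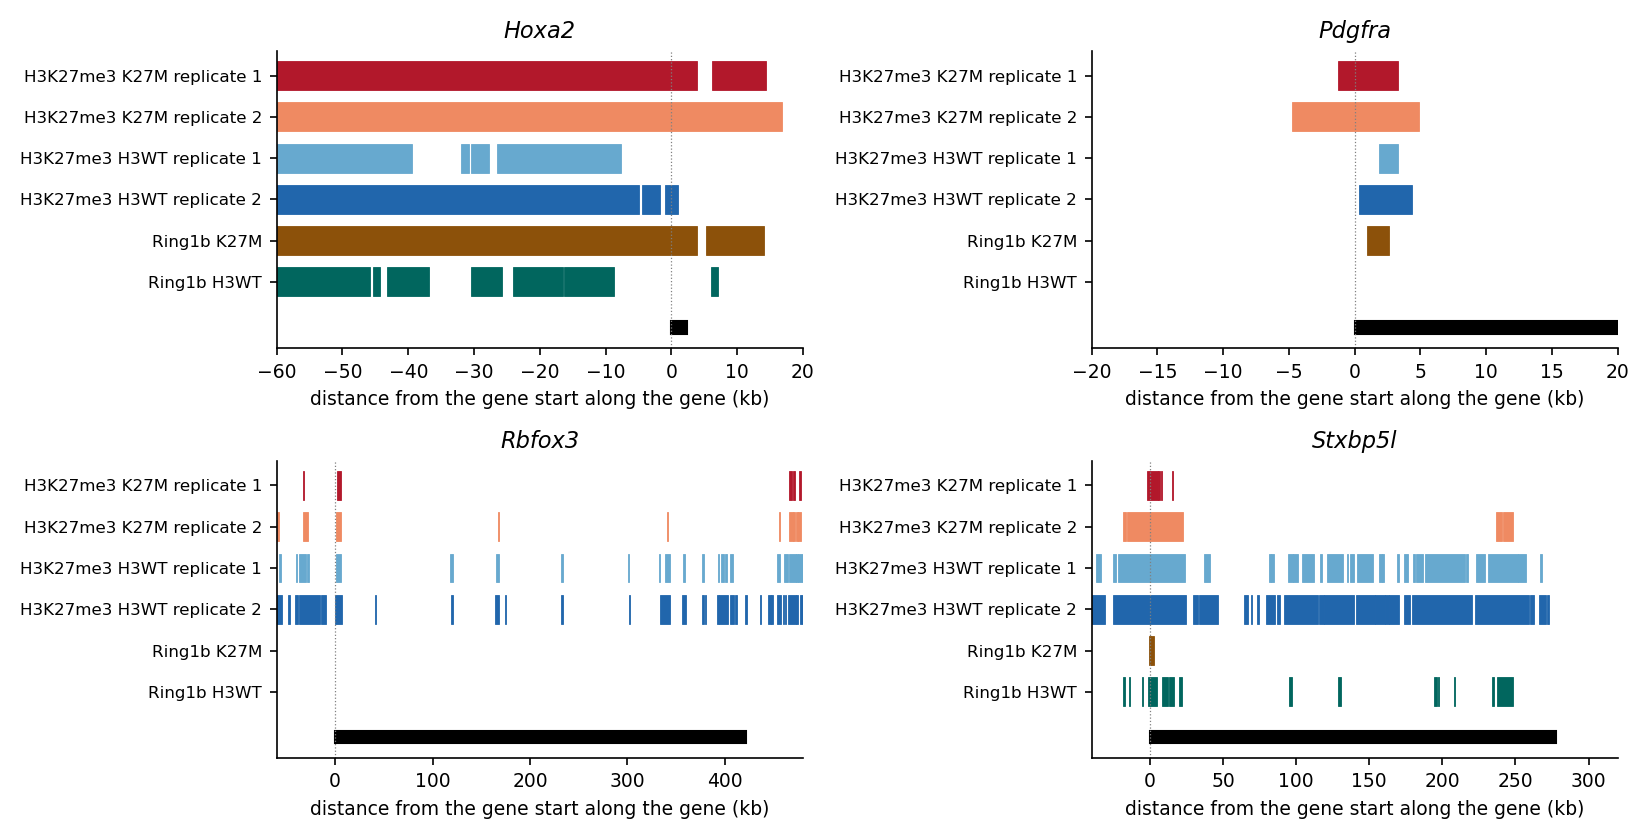
Peaks of H3K27me3 in 4 libraries and of Ring1b in 2 libraries at Hoxa2, Pdgfra, Rbfox3 and Stxbp5l, drawn to scale by distance from the gene start in kb along the direction of the gene, with the gene as a black bar. The K27M domains run over the start of Hoxa2 and Pdgfra, while at Stxbp5l the K27M peaks stay mainly at the start of the gene and the H3WT peaks extend along it.

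Hox clusters kept their cover. Of 38 Hox genes with cover in both H3WT libraries, 35 were kept in both replicate numbers, 1 was widened and none was narrowed or lost in both. Hoxd3 had 56.3 kb, the whole locus window, in all 4 libraries, and Hoxb3 likewise had 60.8 kb in each. The median ratio of K27M to H3WT cover was 1 in each replicate number, but it was also 1 between the H3WT libraries, where 36 of 39 Hox genes were kept. A locus covered from end to end cannot widen within its window.

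Other lineage transcription factors were mostly kept as well. Of 90 homeobox and paired-box genes with cover in both H3WT libraries, 67 were kept, 5 narrowed, 1 widened and none lost in both numbers. Of 39 T-box, Gata and forkhead genes, 22 were kept, 3 narrowed, 1 widened and 3 lost, and of 45 bHLH, Sox and zinc-finger genes, 24 were kept, 6 narrowed, 1 widened and 2 lost. These counts stand beside 466 kept of 4258 among all genes (10.9%). Pax3, a paired-box factor of the dorsal neural tube and neural crest, had 70.2 and 78.0 kb in K27M, against 80.2 and 88.1 kb in H3WT, and Gata4, a factor of heart and endoderm, had 46.4 and 68.6 kb in K27M, against 68.0 and 88.8 kb in H3WT. Pax2, of the midbrain-hindbrain boundary and kidney, was narrowed, with 36.7 and 63.8 kb in K27M, against 83.3 and 105.6 kb in H3WT. The groups did not overlap at Pax2 or Pax3, although the reduction at Pax3 was far smaller.

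These factors also kept their cover between the H3WT libraries. There 70 of 93 homeobox and paired-box genes, 25 of 39 T-box, Gata and forkhead genes and 29 of 50 bHLH, Sox and zinc-finger genes were kept. The median ratio of homeobox and paired-box genes was 0.925 and 0.962 between genotypes in replicates 1 and 2, beside 0.854 between the H3WT libraries. It was 0.917 and 0.887, beside 0.772, for T-box, Gata and forkhead genes, and 0.828 and 0.846, beside 0.748, for bHLH, Sox and zinc-finger genes. No lineage factor list was therefore kept between genotypes and not between replicates. Without overlap, 5 homeobox and paired-box genes had longer and 22 shorter cover in K27M of 96 with any cover, beside 0.314% longer and 26.01% shorter among all 8911. The counts were 3 and 0 of 39 for Hox, 1 and 11 of 39 for T-box, Gata and forkhead, and 4 and 14 of 52 for bHLH, Sox and zinc-finger genes. Of the genes with cover in both H3WT libraries, which a shorter gene must have, 24.4% of homeobox and paired-box, 28.2% of T-box, Gata and forkhead and 31.1% of bHLH, Sox and zinc-finger genes were shorter, beside 54.4% of all 4258.

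Cell cycle inhibitors, Polycomb genes and imprinted genes held a few long kept domains. Cdkn2a (chr4:89274473-89294619, minus strand), which encodes the Ink4a and Arf tumour suppressors, had 29.6 and 30.7 kb in K27M, against 23.1 and 29.7 kb in H3WT, and the groups overlapped. Its K27M domains ended beyond the gene start, 82 and 579 bases past it, and the H3WT domains ended 4123 and 420 bases short of it. Ring1b covered 28.9 kb there in K27M and 11.4 kb in H3WT. The adjoining Cdkn2b had no H3K27me3 cover in any of the 4 libraries. Of the 4 cell cycle inhibitors with cover in both H3WT libraries, 2 were kept and none was narrowed, widened or lost in both numbers. Among all 4258 such genes 10.9% were kept, 12.5% narrowed, 0.211% widened and 21.4% lost.

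Zdbf2, an imprinted gene on chromosome 1, had 82.2 and 109.8 kb in K27M, against 102 and 115 kb in H3WT, and was kept. Of 18 imprinted genes with cover in both H3WT libraries, 4 were kept, 6 narrowed and 1 lost in both numbers. Among all 4258 such genes 10.9% were kept, 12.5% narrowed and 21.4% lost. Calcr, imprinted in mouse brain, was narrowed, with 15.2 and 26.3 kb in K27M, against 44.8 and 77.3 kb in H3WT and no overlap. There the K27M libraries had only the domain around the gene start, and the H3WT libraries had further peaks along the gene. Of 10 genes for Polycomb proteins and H3K27 enzymes, 2 were kept and 1 lost, beside the same shares of all genes. The kept ones were Epop, a PRC2 partner, and Pcgf1, a PRC1 subunit, and the lost one was Crebbp, an acetyltransferase. Crebbp had little to lose, with none in K27M, against 1.13 and 2.87 kb in H3WT. Its promoter lay under no H3K27me3 peak in any of the 4 libraries.

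Long H3K27me3 domains at some neuronal genes were narrowed in K27M. Rbfox3 (chr11:118489760-118911597, minus strand), which encodes the neuronal nuclear antigen NeuN, had 4.22 and 7.43 kb in K27M, against 33.8 and 57.6 kb in H3WT (log2 difference -2.77, limma adjusted p = 0.646). Stxbp5l (chr16:37107075-37385015, minus strand), a regulator of synaptic vesicle release, had 11.1 and 43.1 kb in K27M, against 160.3 and 231 kb in H3WT (log2 difference -3.06, limma adjusted p = 0.646). Both were far below H3WT in both K27M libraries, and even K27M replicate 2 had 21.98% and 26.9% of the cover of H3WT replicate 1 at these loci. Ring1b at Stxbp5l covered 2.91 kb in K27M and 37.7 kb in H3WT. At Rbfox3 no Ring1b peak was listed in either genotype. Most narrowed genes did not stand out in this way, since 79 of the 533 were also narrowed in K27M replicate 2 against H3WT replicate 1.

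Of 34 neuronal genes with cover in both H3WT libraries, 12 were narrowed, 10 kept and 3 lost in both numbers, beside 12.5% narrowed, 10.9% kept and 21.4% lost among all 4258 such genes. Of 49 signalling genes, among them Wnt, Bmp, Fgf, TGF-beta and Hedgehog ligands, receptors and antagonists, 16 were narrowed, 9 kept and 5 lost. Ihh, a Hedgehog ligand, had 7.77 and 15.1 kb in K27M, against 24.0 and 26.4 kb in H3WT, and Bmp4, a Bmp ligand, had 5.11 and 10.4 kb in K27M, against 15.8 and 21.2 kb in H3WT. Both were lower in both K27M libraries. Kept ligand genes included Wnt6, with 21.1 and 27.6 kb in K27M, against 26.4 and 34.6 kb in H3WT, where the groups overlapped. Without overlap, 20 of 41 neuronal and 24 of 55 signalling genes with any cover were shorter in K27M and none was longer, beside 26.01% shorter and 0.314% longer among all genes. Of the genes with cover in both H3WT libraries this is 58.8% of neuronal and 49.0% of signalling genes, beside 54.4% of all genes, so neither list stood far from the whole.

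Few ion channel, cell surface and matrix genes kept their cover in both replicate numbers. Of 58 channel and neurotransmitter receptor genes, 21 were narrowed, 9 lost and 2 kept, beside 12.5% narrowed, 21.4% lost and 10.9% kept among all genes. Cacna1e, a voltage-gated calcium channel, had 1.70 and 25.2 kb in K27M, against 45.2 and 173 kb in H3WT, without overlap. Of 32 axon guidance, cadherin and protocadherin genes, 8 were narrowed, 7 lost and none kept. Of 33 matrix and epithelial genes, 7 were narrowed, 7 lost and none kept, so that the lost shares of both lists were close to that of all genes. Trp73, a p53 family member of that list, had 5.81 and 7.67 kb in K27M, against 22.3 and 34.2 kb in H3WT. Its K27M libraries had only the peak across the gene start, where Ring1b covered 5.15 kb in K27M and 5.19 kb in H3WT.

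Long loci of this kind were also narrow in H3WT replicate 1 relative to replicate 2. Between the H3WT libraries 53 of 68 channel genes, 28 of 44 axon guidance and cadherin genes and 29 of 52 matrix and epithelial genes were narrowed. The median ratio for channels was 0 and 0.229 between genotypes in replicates 1 and 2, beside 0.269 between the H3WT libraries. For K27M replicate 2 over H3WT replicate 1 it was 0.802, beside 0.941 for all genes. In that pair it was 0.989 for axon guidance and cadherin genes and 0.881 for matrix and epithelial genes. Kept there were 28 of 58 channel, 17 of 32 axon guidance and cadherin, and 14 of 33 matrix and epithelial genes. Of all genes 2103 of 4273 were kept, so the low kept counts above did not hold in that pair. Without overlap, 39 of 68 channel, 17 of 44 axon guidance and cadherin, and 19 of 52 matrix and epithelial genes with any cover were shorter in K27M, beside 26.01% of all genes. Of those with cover in both H3WT libraries it was 67.2, 53.1 and 57.6%, beside 54.4% of all genes.

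Genes that lost the mark in both numbers had little of it in H3WT replicate 1 and more in H3WT replicate 2. Of the 913, 862 had under 5 kb of cover in H3WT replicate 1 and 3 had 10 kb or more, and the medians were 1.63 kb in H3WT replicate 1 and 6.45 kb in H3WT replicate 2. Pkhd1l1, a fibrocystin-like membrane protein, had none in K27M, against 15.4 and 100.6 kb in H3WT. Dnajc5b, a cysteine string protein, had none in K27M, against 15.0 and 56.4 kb in H3WT. Such long lost loci were rare in H3WT replicate 1, where the median cover of lost genes was not far above the narrowest peak in any list, 1001 bases. Genes of differentiated glia were among the lost ones: Mobp, a myelin protein, had none in K27M, against 7.14 and 19.7 kb in H3WT, and Gja1, the astrocyte gap junction protein, had none in K27M, against 2.20 and 4.01 kb in H3WT.

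Krt7, an epithelial keratin, had none in K27M, against 5.86 and 14.8 kb in H3WT (log2 difference -3.38, limma adjusted p = 0.646). Its promoter, shown above, was the only one of the 6 under peaks of H3WT libraries alone. Other lost genes were Gli2 of Hedgehog signalling, with none in K27M, against 5.21 and 8.87 kb in H3WT, and Cdh8, a cadherin, with none in K27M, against 9.79 and 38.8 kb in H3WT. Of these 913 genes, 49 had a Ring1b peak, and 18 of the 49 (36.7%) had longer Ring1b cover in K27M. Among kept genes it was 354 of 373 (94.9%) and among narrowed genes 103 of 181 (56.9%).

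The remaining lists had few genes with the mark. Their counts are over genes with cover in both H3WT libraries and stand beside 12.5% narrowed, 21.4% lost, 10.9% kept and 0.211% widened in both numbers, and 54.4% shorter without overlap, among all 4258 such genes. Of 19 genes for PDGF and receptor tyrosine kinases, 6 were narrowed, 2 lost, 1 kept and 1, Pdgfra, widened in both numbers, and 9 (47.4%) were shorter in K27M without overlap. Of 5 neural stem and glial progenitor genes, 1 was narrowed and 1, again Pdgfra, widened, and 3 were shorter without overlap. Of 8 astrocyte and oligodendrocyte genes, 3 were lost and 1 narrowed, with 5 shorter without overlap. Of 16 germ cell and meiosis genes, 4 were lost, 1 narrowed and 1 kept, with 12 shorter without overlap. Of 8 immune genes, 1 was narrowed and 1 lost, and 6 were shorter without overlap. Of 6 microglial, endothelial and mesenchymal markers, 4 were lost and 1 narrowed, with 5 shorter without overlap. Neither of the 2 housekeeping genes had the same class in both numbers, and 1 was shorter without overlap. In the lists described earlier, 10 of 18 imprinted genes (55.6%), 1 of 10 Polycomb genes and 1 of 4 cell cycle inhibitors were shorter without overlap.

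**Figure D4:**
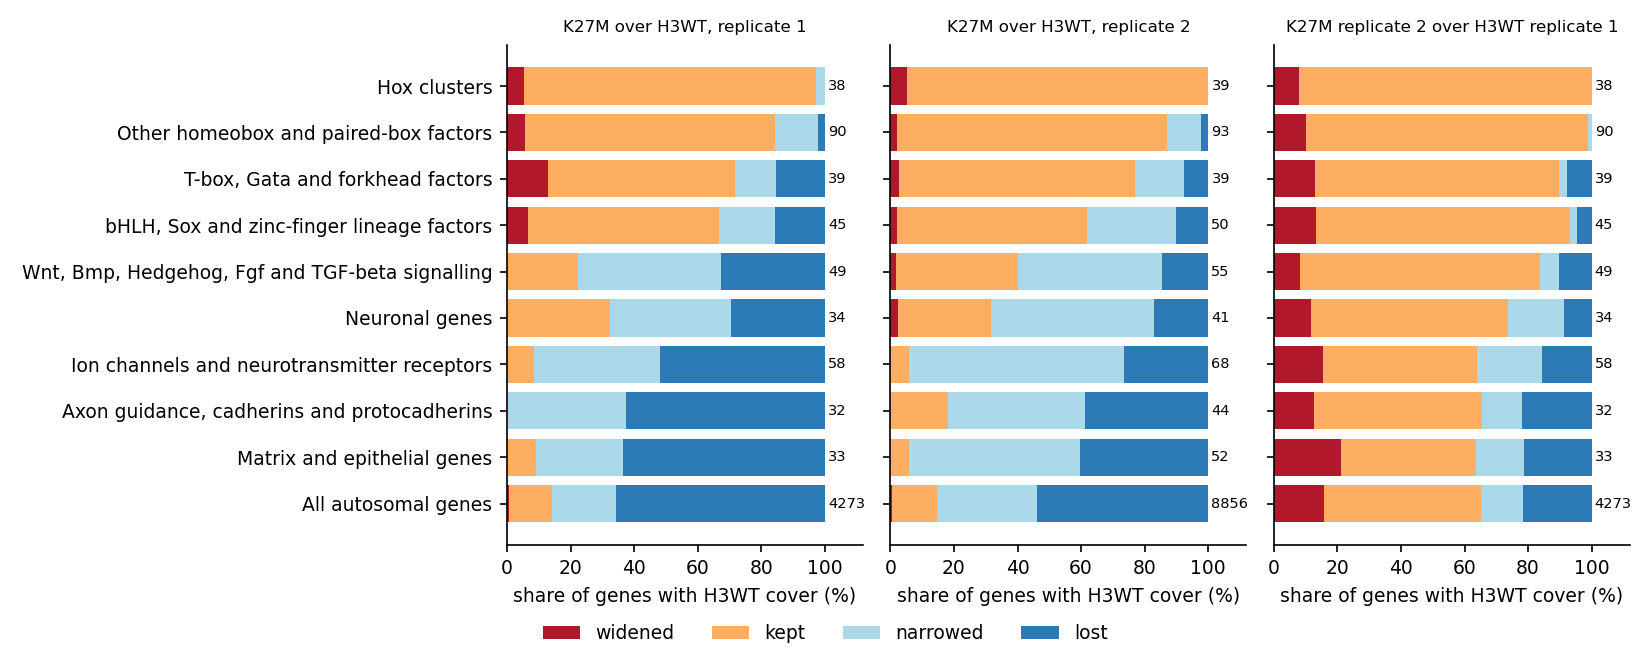
Share of genes with H3WT cover that were widened, kept, narrowed or lost in K27M (percent, stacked), for 9 gene lists and all autosomal genes, with the number of genes at the right of each bar. Hox, homeobox and other lineage factor genes were mostly kept in each panel, and in the right panel, K27M replicate 2 over H3WT replicate 1, most signalling and matrix bars also turn towards kept and widened.

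As a check on the cell label, peak lists say only where markers carry the repressive mark. Of 10 autosomal markers of neural stem cells and glial progenitors, 1 had cover in each K27M library, against 1 and 2 in the H3WT libraries, with summed covers of 4.60 and 9.63 kb, against 1.49 and 5.32 kb. Pdgfra was the one in both K27M libraries, and Olig2 had none in any library. Of 4 neuronal markers 1 and 1 had cover in K27M, against 2 and 2 in H3WT, mainly Rbfox3. Of 4 markers of mature glia none had cover in K27M, against 1 and 1 in H3WT. Of 8 microglial, endothelial and mesenchymal markers none had cover in K27M, against 1 and 5 in H3WT. The part of other cell types in the results was not tested.

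The H3WT bases still under K27M peaks were most frequent at Suz12 peaks, although most K27M cover lay elsewhere. Under Suz12 peaks of H3WT cells, K27M covered 97.0% of the H3WT bases in replicate 1 and 99.7% in replicate 2. At 5 to 10 kb from a Suz12 peak it covered 50.4 and 63.5%, and beyond 100 kb 20.5 and 22.1%. The fall with distance was as steep within a genotype: H3WT replicate 1 covered 99.8% of the bases of H3WT replicate 2 under Suz12 peaks and 20.6% beyond 100 kb, and K27M replicate 1 covered 97.1% and 20.2% of those of K27M replicate 2. K27M replicate 2 still covered 65.7% of the bases of H3WT replicate 1 beyond 100 kb. Suz12 peaks took up only a small part of the mark, with 15.3 and 4.90% of the K27M length under them, against 5.21 and 1.36% of the H3WT length. Within 10 kb of them lay 42.2 and 17.6% of the K27M length, against 18.3 and 5.82% of the H3WT length. Beyond 100 kb lay 45.4 and 70.2% of the K27M length, against 67.9 and 84.5% of the H3WT length. In each of these shares the order followed the total length of the library, and the groups overlapped.

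**Figure D5:**
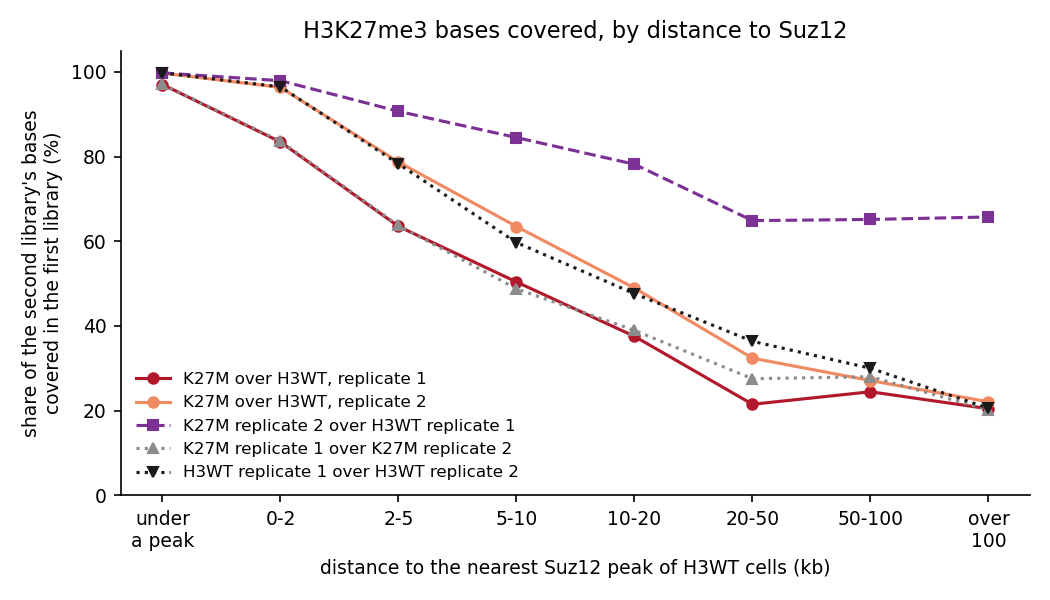
Share of the H3K27me3 bases of 1 library that a second library also covered (percent), by distance to the nearest Suz12 peak of H3WT cells in kb, for K27M over H3WT in each replicate number, for the pair of nearly equal length and for the replicates of each genotype. The share goes down with distance to 20.5 and 22.1% between genotypes and to 20.6 and 20.2% between replicates of H3WT and of K27M, and to 65.7% in the pair of nearly equal length.

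Ring1b and Suz12 peaks were counted in the widened, kept and narrowed domains. Of the 25 widened domains of replicate 1, 22 (88.0%) held a Ring1b peak of K27M cells and 16 (64.0%) one of H3WT cells, and 11 (44.0%) held a Suz12 peak of K27M cells and 1 (4.0%) one of H3WT cells. Kept domains were much like them for Ring1b: of the 458, 72.5% held a Ring1b peak of K27M cells and 60.9% one of H3WT cells, and 73.6 and 43.9% held a Suz12 peak of K27M and of H3WT cells. Of the 883 narrowed domains, 28.8% held a Ring1b peak of K27M cells and 25.8% one of H3WT cells. Over all 7202 domains with H3WT cover it was 9.35% and 9.40%, and 9.40 and 5.47% held a Suz12 peak of K27M and of H3WT cells. In replicate 2 the 68 widened domains had less of either, with a Ring1b peak of K27M cells in 22.1% and one of H3WT cells in 13.2%, beside 31.1 and 26.4% of kept domains and 2.72 and 2.80% of all 26244. Domains kept within a genotype held such peaks as well. Of 312 kept between the K27M libraries, 80.1% held a Ring1b and 82.1% a Suz12 peak of K27M cells. Of 1082 kept between the H3WT libraries it was 27.3 and 30.2%. The Suz12 list itself was longer in K27M, with 1243 peaks and 3.95 Mb, against 631 peaks and 2.05 Mb in H3WT.

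Kept genes had promoters richer in CG dinucleotides than lost genes. Among the 16456 autosomal genes with a RefSeq promoter, the median ratio of observed to expected CG dinucleotides was 0.597. The median, given without a test, was 0.717 over 332 genes kept in both numbers, 0.658 over 400 narrowed, 0.589 over 9 widened and 0.452 over 713 lost. Of H3WT-marked promoters with a ratio of 0.8 or more, K27M peaks still covered 178 of 329 (54.1%, 95% exact binomial interval 48.6 to 59.6%) in replicate 1 and 350 of 479 (73.1%, 68.9 to 77.0%) in replicate 2. With a ratio under 0.4 it was 69 of 256 (26.95%, 21.6 to 32.8%) and 214 of 699 (30.6%, 27.2 to 34.2%). Between the H3WT libraries the same shares were 68.3% and 36.5%. Among the 9 widened genes, the promoter was under a peak at 7 and 8 in the K27M libraries, against 2 and 6 in the H3WT libraries. Over all 16456 genes with a promoter it was 3.18 and 6.77% in K27M, against 7.07 and 12.6% in H3WT. The 9 genes were chosen by longer K27M cover in these same libraries, so their promoter counts are no separate evidence.

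Chromosome X was kept out of all these results and serves only as a caution on replicates. It held 3.54 and 36.4% of the covered length in K27M replicates 1 and 2, against 10.0 and 30.9% in H3WT replicates 1 and 2. In replicate 1, X had 10.9% of the H3WT length, under the 17.2% of the lowest autosome, and in replicate 2 it had 35.6%, above the 33.3% of the highest. Within a genotype the replicates differed more on X than on any autosome, with K27M replicate 1 at 1.99% of K27M replicate 2 and H3WT replicate 1 at 6.5% of H3WT replicate 2. The replicate 2 libraries of both genotypes thus shared a high X share that the replicate 1 libraries lacked.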

How the data were processed

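H3K27me3 was profiled by ChIP-seq in 2 K27M and 2 H3WT libraries in DMSO. The authors deposited 1 peak list a library, and the score deposited with every peak is 0, so position and width alone were used. Per the submitters' processing notes, Bowtie 1.1.2 and mm10 were used. The peak caller, its threshold and control, and the read depth are not given in the sources used here, so no interval or floor for depth can be given. IgG libraries were not analysed here. The K27M and H3WT lists of Suz12 and Ring1b, with 1 library a genotype, were used as further readouts.

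Touching peaks within a library were merged, and chromosomes 1 to 19 were used. Genes and promoters came from RefSeq (GRCm38.p6): 20661 autosomal protein-coding genes, 16456 with a promoter sequence. Locus cover was tested with limma 3.58.1 (R 4.3.3) on log2(kb + 1), filtered to genes with cover in at least 1 library, without a replicate block, with Benjamini-Hochberg adjustment over all of them and an adjusted p of 0.05. The fold is on that scale and understates changes of short covers. Totals were tested by exact permutation over all relabellings (numpy 2.4.6), and the exact binomial intervals came from scipy 1.17.1. The limma step was tested on simulated data with covers raised well above 0. That test therefore does not speak for genes without cover in some libraries. Named genes were the 6 with the longest cover, or the largest K27M excess, of each class, up to 2 of each class in each of 19 gene lists, and Cdkn2a, Cdkn2b, Pdgfra and Olig2. The members of the 28-gene group named beside them, and the promoters shown, were chosen after their values were seen. Of 930 list entries, 912 matched autosomal genes and 17 were on X. The gene lists, like the comparison itself, were chosen with earlier results of these data known. Alternatives covered peak width, merging gap, window, class limits, scaling, filter, pseudocount, the replicate block and leaving out each library.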

Additional observations from a re-analysis of the deposited data

How the results depend on the processing

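The lower covered length and peak number and the greater median width in K27M kept their direction under each alternative tried, and none could pass a test. Leaving out 1 library moved the log2 difference of covered length, -1.72, to between -2.69 (without H3WT replicate 1) and -0.75 (without H3WT replicate 2), that of peak number, -2.29, to between -3.35 and -1.23 (without K27M replicate 2 and 1), and that of width, 0.40, to between 0.17 and 0.63 (without K27M replicate 1 and 2). With peaks of at least 3 kb the width difference was 0.18. Counts of genes moved with the limits and with single libraries. The limma count of 0 became 9 with no filter, 30 (3 higher, 27 lower in K27M) when each library was centred on the 1464 genes covered in all 4, and 7 (1 higher, 6 lower) when centred with the replicate block, an alternative added after seeing the data, and it ran from 0 to 4776 when a library was left out. Genes kept in both numbers, 466, became 708 with limits of 1/2 and 2 and 2103 for K27M replicate 2 over H3WT replicate 1, with 574 to 1248 from 1 replicate number alone. Narrowed genes, 533, became 281 with those limits and 196 with peaks of at least 3 kb, with 856 to 2806 from 1 number. Widened genes, 9, became 4 with those limits, 2 with at least 5 kb of H3WT cover and 680 in the pair of nearly equal length, with 34 to 41 from 1 number. Lost genes, 913, became 51 with at least 5 kb of H3WT cover and 353 with peaks of at least 3 kb, with 2809 to 4761 from 1 number. New genes, 2, became 4 with a window of 2 kb, 0 with at least 5 kb of cover and 790 in that pair, with 9 to 41 from 1 number. Genes longer in both K27M libraries, 28, ran from 28 to 258 when a library was left out, and those shorter in both, 2318, became 983 with peaks of at least 3 kb and ran from 2318 to 8557. With touching peaks only, kept and lost domains were 714 and 9278 in replicate 1 and 2657 and 36493 in replicate 2. With gaps of up to 10 kb, kept and lost domains of replicate 2 were 909 and 13061, and with peaks of at least 3 kb 1903 domains were lost in replicate 1 and 7894 in replicate 2. The mean share of H3WT bases still covered was 98.4% under Suz12 peaks and became 92.8% under Ring1b peaks. Beyond 100 kb it was 21.3% and became 14.7% with the Suz12 lists of both genotypes and 17.1% with Ring1b. The cause of these shifts was not tested, apart from those that follow from the alternative's construction, such as fewer libraries or peaks.

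With the replicate block the log2 differences stayed at -1.72, -2.29 and 0.40 with a smallest possible exact permutation p of 0.5 each, and limma gave 0 calls (1190 genes at an unadjusted p under 0.05, 4 of them higher). The lowest Benjamini-Hochberg adjusted p of limma with the block was 0.371. Across genes, deviations of libraries with the same number correlated at -0.0971. That value leaves out any overall shift, so it cannot judge a pairing by total cover. The replicate 2 libraries of both genotypes shared a longer total cover and a higher share on X. The main limma test took no account of replicate numbers, whereas the classes compared libraries of the same number. The unknown read depth and peak threshold limit every length.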

Other observations

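The widened genes depended on the choices made for them. Of the 9, Spag6, Nr6a1 and Pdgfra were among the 6 widened with a window of 2 kb, and Spag6, Hoxa2, Pdgfra and Gm46725 were the 4 that at least doubled in both replicate numbers. With peaks of at least 3 kb 6 of the 9 were among the 7 widened. Of the new genes, Prdm1 was among the 4 with a window of 2 kb and Meis1 was not. With peaks of at least 3 kb neither was among the 3 new genes.

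Ring1b and Suz12 differed in length at other developmental loci. Zic4 had 41.6 kb of Ring1b cover in K27M and 18.8 kb in H3WT, and Zic1 had 23.3 kb in K27M and 3.97 kb in H3WT. Irx5 had 16.5 kb in K27M and 9.59 kb in H3WT. Hoxa3 had 52.1 kb of Suz12 cover in K27M and none in H3WT, while Hoxd3 had 20.4 kb in K27M and 32.1 kb in H3WT, each from 1 library a genotype.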
